A study of Rattus norvegicus with 21 samples.

Results

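The circadian clock genes Nr1d1, Nr1d2, Per1, Per2, Per3, Cry1, Cry2, Dbp, Tef and Clock were followed by symbol through bulk RNA-seq of the infarct zone of Sprague Dawley rat hearts. Of these 10 symbols, 9 had a row among the 17085 gene symbols of the count and TPM files, and Nr1d2 was not analysed here. There were 7 groups of 3 libraries, 21 in all. MI24h-F and MI24h had the left anterior descending coronary artery ligated for 24 h. MI1h-23h-F and MI1h_R had 1 h of ischemia and then reperfusion, and MI6h-18h-F and MI6h_R had 6 h of ischemia and then reperfusion. The last group was Sham. The titles of the reperfused F groups give 23 h and 18 h of reperfusion, and hearts were taken 24 h after infarction. The letter F is not spelled out in the titles. The series' design text names pretreatment with the PPARα agonist fenofibrate, and the groups are called by their titles here. No Sham group with F was analysed here. Whether Sham hearts were also taken at 24 h, whether the 3 libraries of a group came from separate animals, and the rats' age and sex are not given in the sources used here, so the p-values below measure only the spread between these libraries.

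The mammalian clock is a loop of transcription and repression. CLOCK, or its relative NPAS2, pairs with BMAL1 (the gene Arntl in these files) on E-box sequences and switches on the Per and Cry genes, Nr1d1, Dbp and Tef, and the PER and CRY proteins then repress CLOCK-BMAL1. NR1D1 (REV-ERBα) represses Arntl, Cry1 and Nfil3, and the activators DBP and TEF compete with the repressor NFIL3 for D-box sequences. In the rodent heart these transcripts swing over the day. The time of day of surgery and of collection is not given in the sources used here, so any difference between groups below cannot be told apart from a difference in the hour at which the hearts were taken.

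Total gene counts ran from 12208041 to 18393795 per library, and the 9 clock genes had 28 to 1787 counts in a library. Levels between libraries are given as CPM, a gene's counts set to a fixed library total, with TMM scaling, a factor per library that centres most genes on no change. TMM factors were 0.996 to 1.17 in the 18 infarct libraries and 0.535 to 0.677 in the Sham libraries. Mitochondrial genes took 14.1% to 17.9% of the counts on average in the infarct groups and 36.3% ± 2.54 (SD, n = 3) in Sham. With scaling to library size alone, the median gene lay 0.80 to 0.91 higher than in Sham on the log2 scale in the 6 infarct groups. The calls in these 6 comparisons then split into 6372 to 6878 genes up and 1040 to 1945 down, against 2807 to 3607 up and 2829 to 3532 down with TMM. The signs against Sham given below are therefore relative to the median gene, and the signs of genes named below that turn with library size alone or on log2(TPM + 1) are given with those values. The 11 cardiomyocyte markers summed to 2068 to 15505 CPM in the infarct groups and 58104 to 116126 CPM in Sham. The 8 neutrophil markers summed to 239 to 2798 CPM in the infarct groups and 28.7 to 166 CPM in Sham, and no marker was at 0 in every library of a group. In bulk tissue, fewer cells of a type and less RNA per cell cannot be told apart.

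On the TPM scale, which corrects for transcript length, with medians over the 21 libraries, the most abundant of the 9 was Nr1d1 at 19.4 TPM, followed by the D-box activators Dbp at 16.8 TPM and Tef at 14.9 TPM. Clock had 10.85 TPM, Cry2 10.02 TPM, Cry1 9.01 TPM and Per1 8.86 TPM. Per2 at 4.56 TPM and Per3 at 2.04 TPM were the lowest. The genes differed in how far they spread over the libraries. The highest library held 13.7 times the CPM of the lowest for Clock, 11.6 times for Dbp and 9.81 times for Nr1d1, but 2.66 times for Cry2 and 2.05 times for Per2. When the 7 groups were ranked by mean CPM, neighbouring groups nearly always overlapped. The exceptions were the gaps between MI6h-18h-F and MI1h-23h-F in Dbp, between MI1h-23h-F and Sham in Tef, between MI6h_R and Sham in Per3, and between MI24h-F and MI1h_R in Cry2.

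**Figure D1:**
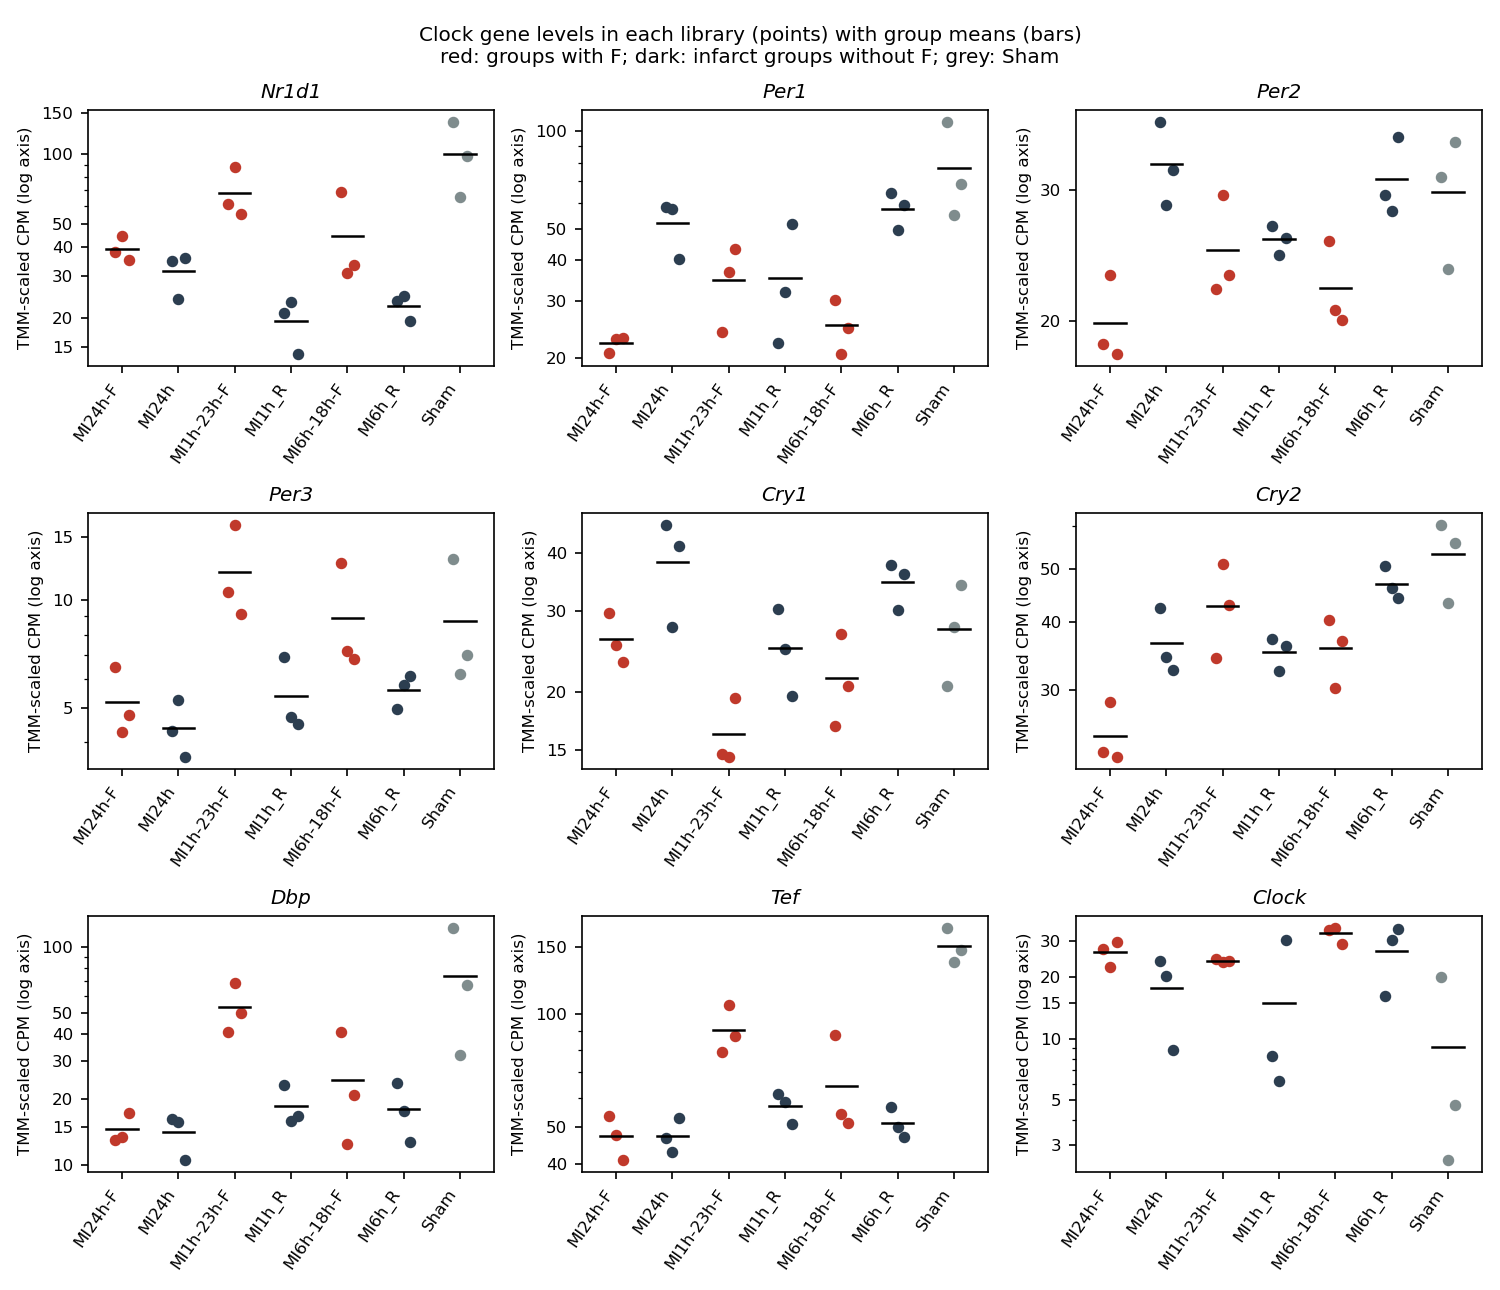
TMM-scaled CPM (log axis) of the 9 clock genes in each of the 21 libraries (points) with the group means (bars). Tef in Sham sits at 137 CPM or more, above all 18 infarct libraries, while Nr1d1 and Dbp in MI1h-23h-F reach into the Sham range.

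The promoters of Nr1d1, Tef, Per2 and Bmal1 are shown because their transcripts carry the comparisons below and because each window holds a clock element. They run from 250 bases before to 50 bases after the annotated start, come from RefSeq's rat assembly GRCr8 and are printed 5′ to 3′ along the gene's strand. The counts were made on rn7, so no position in the deposited files was used. Capitals mark the E-box CACGTG, its variant CACGTT and the D-box TTATGTAA, and in Bmal1 the REV-ERB core TAGGTCA. Both strands were searched for these, for the D-box variant TTACGTAA and the core variant TGGGTCA, and for the cAMP response element TGACGTCA.
Nr1d1, chr10:84229405-84229704, minus strand: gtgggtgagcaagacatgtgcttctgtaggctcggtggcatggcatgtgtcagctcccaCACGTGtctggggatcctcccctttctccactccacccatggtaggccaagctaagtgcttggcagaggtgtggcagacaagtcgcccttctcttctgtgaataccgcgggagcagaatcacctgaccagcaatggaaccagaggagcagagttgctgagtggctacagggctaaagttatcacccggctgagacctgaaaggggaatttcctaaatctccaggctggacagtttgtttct
Tef, chr7:115206577-115206876, plus strand: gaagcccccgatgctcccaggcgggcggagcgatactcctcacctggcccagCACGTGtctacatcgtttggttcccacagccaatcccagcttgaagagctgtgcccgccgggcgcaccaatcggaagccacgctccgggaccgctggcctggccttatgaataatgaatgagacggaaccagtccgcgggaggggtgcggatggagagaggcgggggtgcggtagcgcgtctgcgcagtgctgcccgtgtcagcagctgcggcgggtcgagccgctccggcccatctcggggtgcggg
Per2, chr9:99496944-99497243, minus strand: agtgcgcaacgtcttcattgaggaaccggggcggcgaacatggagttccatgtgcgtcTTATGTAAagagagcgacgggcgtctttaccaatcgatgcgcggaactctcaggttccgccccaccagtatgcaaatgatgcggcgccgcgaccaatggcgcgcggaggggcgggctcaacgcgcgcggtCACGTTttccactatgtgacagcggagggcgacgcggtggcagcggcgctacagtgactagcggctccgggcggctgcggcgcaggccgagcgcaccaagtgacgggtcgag
Bmal1, chr1:176766078-176766377, plus strand: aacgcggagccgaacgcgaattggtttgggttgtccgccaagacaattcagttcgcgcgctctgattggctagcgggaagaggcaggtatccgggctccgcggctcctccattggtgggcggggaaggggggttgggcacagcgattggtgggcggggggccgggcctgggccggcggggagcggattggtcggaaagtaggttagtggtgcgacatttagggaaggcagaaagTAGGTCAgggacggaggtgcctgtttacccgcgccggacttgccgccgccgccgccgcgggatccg
The E-box began 191 bases before the start in Nr1d1 and 198 bases before it in Tef. In Per2 the D-box began 192 bases and the E-box variant 62 bases before the start, and in Bmal1 the core began 16 bases before it. A further annotated start of Nr1d1 held CACGTT on the reverse strand, 174 bases before the start, as did Cry2 at 212 bases. The windows of Nr1d2, Per1, Per3, Dbp and Clock held none of these letters, and Cry1 had no entry in the table. CACGTG was found for 2 and CACGTT for 3 of the 9 genes with an entry, and TTATGTAA for 1. Among all 33469 rat promoters in the table, 6.42% held CACGTG, 4.83% CACGTT, 0.893% TTATGTAA and 2.63% TAGGTCA. These shares are of single windows, whereas the members were counted by gene over all windows, with 2 each for Nr1d1 and Clock. A match describes the letters in the window and not binding.

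Nr1d1, Dbp and Tef, known as direct E-box targets of CLOCK-BMAL1, were lower than in Sham in all 3 infarct groups without F. Nr1d1 had 38.0, 44.6 and 35.2 CPM in MI24h-F, 60.9, 88.1 and 55.5 CPM in MI1h-23h-F and 68.8, 31.01 and 33.6 CPM in MI6h-18h-F. It had 35.0, 24.0 and 36.0 CPM in MI24h, 20.9, 23.4 and 14.0 CPM in MI1h_R and 23.5, 24.7 and 19.3 CPM in MI6h_R, against 137, 65.6 and 97.6 CPM in Sham. All 9 infarct libraries without F lay below the lowest Sham library, as did MI24h-F, while the other F groups overlapped Sham. The log2 fold change of Nr1d1 against Sham was -1.66 ± 0.31 (SE) in MI24h, -2.37 ± 0.32 in MI1h_R and -2.15 ± 0.32 in MI6h_R, with adjusted p = 0.000215, 1.42e-05 and 1.76e-05. Here and below, adjusted p-values are from edgeR's quasi-likelihood F test with Benjamini-Hochberg adjustment over the 11742 genes tested, unless another tool is named, and a gene is said to have risen or fallen where this value was under 0.05.

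Dbp, a D-box activator with a wide daily swing in many tissues, varied widely within Sham. Dbp had 13.0, 13.4 and 17.4 CPM in MI24h-F, 40.9, 68.3 and 50.1 CPM in MI1h-23h-F and 40.6, 12.5 and 20.9 CPM in MI6h-18h-F. It had 16.2, 15.8 and 10.6 CPM in MI24h, 23.2, 16.0 and 16.9 CPM in MI1h_R and 23.7, 17.6 and 12.7 CPM in MI6h_R, against 123, 32.1 and 67.3 CPM in Sham. The 9 infarct libraries without F and the 3 of MI24h-F lay below the lowest Sham library, whereas MI1h-23h-F lay inside the Sham range. Its log2 fold change against Sham was -2.38 ± 0.43 in MI24h, -1.99 ± 0.43 in MI1h_R and -2.04 ± 0.43 in MI6h_R (adjusted p = 0.000164, 0.000878 and 0.000543). Tef encodes the related activator TEF. Tef had 53.5, 47.9 and 41.02 CPM in MI24h-F, 79.1, 105 and 87.3 CPM in MI1h-23h-F and 87.8, 54.3 and 51.4 CPM in MI6h-18h-F. It had 46.8, 43.0 and 53.0 CPM in MI24h, 61.4, 58.3 and 51.0 CPM in MI1h_R and 56.5, 50.2 and 47.2 CPM in MI6h_R, against 169, 137 and 147 CPM in Sham. All 18 infarct libraries lay below all 3 of Sham. Tef fell by 1.67 ± 0.19 in MI24h, 1.41 ± 0.19 in MI1h_R and 1.56 ± 0.19 in MI6h_R on the log2 scale (adjusted p = 1.58e-06, 1.27e-05 and 2.50e-06).

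With F, Nr1d1 and Dbp passed the test against Sham in MI24h-F and MI6h-18h-F, and Tef in all 3 groups. A call in one group and not in another is not itself a difference between them. Tested directly below, Dbp and Tef but not Nr1d1 were called between MI1h-23h-F and MI24h-F. No member was called between MI6h-18h-F and MI1h-23h-F. Nr1d1 was -1.35 ± 0.31 in MI24h-F and -1.17 ± 0.31 in MI6h-18h-F relative to Sham (adjusted p = 0.00101 and 0.00334), and Dbp was -2.34 ± 0.43 and -1.59 ± 0.42 in these groups (adjusted p = 0.000148 and 0.00368). In MI1h-23h-F neither passed the test. There Nr1d1 was -0.55 (95% interval -1.19 to 0.082, adjusted p = 0.141) and Dbp -0.48 (-1.34 to 0.38, adjusted p = 0.351), intervals that span both no change and a marked fall. Tef fell in all 3 F groups, by 1.67 ± 0.19 in MI24h-F, 0.74 ± 0.19 in MI1h-23h-F and 1.23 ± 0.19 in MI6h-18h-F (adjusted p = 8.59e-07, 0.00323 and 2.69e-05). Without Sham replicate 11, the Sham library highest in all 3 genes, the fall of Dbp in MI6h-18h-F shrank to -0.99 (adjusted p = 0.0399).

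The falls of Nr1d1, Dbp and Tef in the 3 infarct groups without F also passed the test with scaling to library size alone, at -0.94, -1.62 and -1.30 for Nr1d1, -1.66, -1.23 and -1.19 for Dbp, and -0.94, -0.65 and -0.71 for Tef in MI24h, MI1h_R and MI6h_R. On log2(TPM + 1), tested with limma, all 9 kept their sign, but the call was lost for Dbp in all 3 groups, for Nr1d1 in MI24h (-0.59, adjusted p = 0.0911) and for Tef in MI1h_R and MI6h_R. In MI1h-23h-F the sign itself depended on the scaling. Nr1d1, Dbp and Tef there were 0.25, 0.31 and 0.058 relative to Sham with library size alone, and 0.56, 0.84 and 0.35 on log2(TPM + 1).

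The Per and Cry genes encode the repressors of the loop. Per1 encodes the period protein that also answers acutely to glucocorticoid and cAMP signals. Per1 had 20.7, 22.8 and 22.97 CPM in MI24h-F, 24.0, 36.8 and 43.2 CPM in MI1h-23h-F and 30.3, 20.6 and 24.8 CPM in MI6h-18h-F. It had 58.5, 57.6 and 40.5 CPM in MI24h, 22.3, 31.9 and 51.8 CPM in MI1h_R and 64.4, 49.5 and 59.4 CPM in MI6h_R, against 107, 55.2 and 68.9 CPM in Sham. The F groups were low, with every F library under the lowest Sham library. Per1 was -1.79 ± 0.30 in MI24h-F, -1.15 ± 0.29 in MI1h-23h-F and -1.61 ± 0.29 in MI6h-18h-F relative to Sham (adjusted p = 4.70e-05, 0.00341 and 0.000160). Without F it fell in MI1h_R, at -1.12 ± 0.29 (adjusted p = 0.00367), and was -0.56 in MI24h and -0.41 in MI6h_R (adjusted p = 0.107 and 0.226). These 2 values turned positive with library size alone (0.17 and 0.43) and on log2(TPM + 1) (0.44 and 0.76).

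Per2, a core repressor of the loop, stayed within a narrow range. Per2 had 18.6, 23.1 and 18.1 CPM in MI24h-F, 22.1, 29.6 and 23.1 CPM in MI1h-23h-F and 25.6, 20.7 and 20.1 CPM in MI6h-18h-F. It had 37.1, 28.7 and 31.9 CPM in MI24h, 26.9, 24.5 and 25.9 CPM in MI1h_R and 29.5, 28.2 and 35.4 CPM in MI6h_R, against 31.3, 23.5 and 34.9 CPM in Sham. It fell in MI24h-F at -0.58 ± 0.18 and in MI6h-18h-F at -0.43 ± 0.18 (adjusted p = 0.00930 and 0.0478), and without F it was 0.12, -0.21 and 0.056 in MI24h, MI1h_R and MI6h_R, with no call. Both falls turned positive with library size alone (0.18 and 0.38) and on log2(TPM + 1) (0.36 and 0.52). So did Per2 in MI1h_R (0.57 and 0.54). Per2 in MI24h-F lost its call without Sham replicate 41 (adjusted p = 0.0641). In MI6h-18h-F it lost it without MI6h-18h-F replicate 2 (0.135) or 4 (0.1504) and without Sham replicate 11 (0.101) or 41 (0.216).

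Per3 is the period gene that the rhythm needs least. Per3 had 6.51, 4.26 and 4.77 CPM in MI24h-F, 10.6, 16.2 and 9.14 CPM in MI1h-23h-F and 12.7, 7.20 and 6.83 CPM in MI6h-18h-F. It had 4.30, 5.25 and 3.63 CPM in MI24h, 6.92, 4.72 and 4.51 CPM in MI1h_R and 4.94, 5.78 and 6.12 CPM in MI6h_R, against 13.0, 6.19 and 7.02 CPM in Sham. The MI1h-23h-F libraries stood above all 9 infarct libraries without F. Per3 fell in MI24h at -0.99 ± 0.33 against Sham (adjusted p = 0.0167), a call lost without MI24h replicate 41 (adjusted p = 0.0624) or Sham replicate 11 (-0.59, adjusted p = 0.134), and its sign turned on log2(TPM + 1), at 0.017. It was -0.76, 0.45 and 0.024 in MI24h-F, MI1h-23h-F and MI6h-18h-F and -0.70 and -0.64 in MI1h_R and MI6h_R, with no call. Of these, MI1h_R and MI6h_R turned positive with library size alone (0.040 and 0.19), and with MI24h-F on log2(TPM + 1) (0.11, 0.36 and 0.16 in MI1h_R, MI6h_R and MI24h-F).

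Cry1, the stronger repressor of CLOCK-BMAL1 and a NR1D1 target, was lowest in MI1h-23h-F. Cry1 had 29.7, 25.3 and 23.3 CPM in MI24h-F, 14.7, 14.5 and 19.5 CPM in MI1h-23h-F and 16.9, 26.8 and 20.7 CPM in MI6h-18h-F. It had 46.1, 27.7 and 41.4 CPM in MI24h, 30.4, 24.8 and 19.6 CPM in MI1h_R and 37.7, 30.1 and 36.2 CPM in MI6h_R, against 20.7, 27.7 and 34.1 CPM in Sham. All 3 libraries of MI1h-23h-F lay below those of Sham. Cry1 was -0.76 ± 0.24 in MI1h-23h-F relative to Sham (adjusted p = 0.0136) and passed the test against Sham in no other group. That call was lost without MI1h-23h-F replicate 1 (0.0557), MI1h-23h-F replicate 4 (0.0561) or Sham replicate 41 (0.0815), and the sign turned with library size alone (0.060) and on log2(TPM + 1) (0.30). Cry2, its relative, was lowest in MI24h-F. Cry2 had 23.1, 28.5 and 22.6 CPM in MI24h-F, 34.3, 51.0 and 42.9 CPM in MI1h-23h-F and 40.4, 30.2 and 36.9 CPM in MI6h-18h-F. It had 42.3, 34.5 and 32.6 CPM in MI24h, 37.2, 32.4 and 36.0 CPM in MI1h_R and 50.6, 46.1 and 44.3 CPM in MI6h_R, against 60.2, 43.3 and 55.8 CPM in Sham. MI24h-F lay below every other library. Cry2 fell in MI24h-F (-1.10 ± 0.18), MI6h-18h-F (-0.57 ± 0.17), MI24h (-0.54 ± 0.17) and MI1h_R (-0.59 ± 0.17), with adjusted p = 3.46e-05, 0.00994, 0.0139 and 0.00889. The last 3 turned positive with library size alone (0.24, 0.20 and 0.18) and on log2(TPM + 1) (0.47, 0.42 and 0.28), whereas MI24h-F was -0.35 and -0.057. The call in MI24h was lost without MI24h replicate 41 (adjusted p = 0.0579), and that in MI6h-18h-F without MI6h-18h-F replicate 2 (adjusted p = 0.0583).

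Clock, which encodes the activating partner of BMAL1, was the member that rose. Clock had 27.5, 22.4 and 29.9 CPM in MI24h-F, 24.7, 23.8 and 24.0 CPM in MI1h-23h-F and 34.3, 35.0 and 29.2 CPM in MI6h-18h-F. It had 24.1, 20.2 and 8.78 CPM in MI24h, 8.24, 6.24 and 30.7 CPM in MI1h_R and 16.1, 30.5 and 34.5 CPM in MI6h_R, against 20.1, 2.55 and 4.72 CPM in Sham. Sham replicates 31 and 41, MI24h replicate 41, and MI1h_R replicates 11 and 31 held 8.78 CPM or less, and every other library 16.1 CPM or more. Relative to Sham, Clock was 1.54 ± 0.61 in MI24h-F, 1.84 ± 0.61 in MI6h-18h-F and 1.56 ± 0.61 in MI6h_R (adjusted p = 0.0363, 0.0158 and 0.0357), and 1.40 in MI1h-23h-F, 0.95 in MI24h and 0.72 in MI1h_R (adjusted p = 0.0650, 0.194 and 0.339). The 3 calls turned on single libraries. Without Sham replicate 31 or 41 the adjusted p was 0.116 and 0.123 in MI24h-F, 0.0574 and 0.0690 in MI6h-18h-F, and 0.116 and 0.126 in MI6h_R. Without Sham replicate 11 the fold changes grew to 2.91, 3.20 and 2.93. The call was also lost without MI24h-F replicate 1 (0.0665) or 4 (0.0782) in MI24h-F, and without MI6h_R replicate 21 (0.0798) or 31 (0.0963) in MI6h_R.

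The level of Clock also followed a property of the libraries that the other members followed less closely. In each library the deviation of every gene from its mean was related to the log2 length that its counts and TPM imply, and the slope was lowest in Sham replicates 31 (-0.22) and 41 (-0.18), MI1h_R replicates 31 (-0.13) and 11 (-0.12) and MI24h replicate 41 (-0.12), the 5 libraries with little Clock. The slopes of the other 16 libraries ran from -0.01 to 0.09. None of these 5 libraries is from an F group. Pearson's r between log2 Clock and this slope was 0.95 over the 21 libraries and 0.91 over the 18 infarct libraries. For the other 8 members r over the 21 libraries ran from -0.35 to 0.28. Over the 18 it ran from -0.22 (Cry1) to 0.38 (Per3), with 0.37 for Nr1d1. With the trend on length removed, a check added after the data were seen, Clock was 1.43 in MI24h-F, 1.73 in MI6h-18h-F and 1.43 in MI6h_R and still passed the test. The part of RNA integrity or library preparation in this was not tested.

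Counted over the 9 members, 6 fell and 1 rose in MI24h-F against Sham, where 60.8% of all genes tested were called, 30.1% lower and 30.7% higher. In MI1h-23h-F 3 fell and none rose, with 48.2% of all genes called, 24.2% lower and 23.9% higher. In MI6h-18h-F 6 fell and 1 rose, with 57.2% called, 28.5% lower and 28.6% higher. Without F, 5 fell and none rose in MI24h, with 54.3% called, 26.2% lower and 28% higher. In MI1h_R 5 fell and none rose, with 49.5% called, 24.1% lower and 25.4% higher, and in MI6h_R 3 fell and 1 rose, with 57.2% called, 28% lower and 29.3% higher. At 3 to 7 of 9, the number of members called did not stand apart from the share of all genes called. The median member was -1.10, -0.48 and -0.57 in MI24h-F, MI1h-23h-F and MI6h-18h-F and -0.56, -0.70 and -0.41 in MI24h, MI1h_R and MI6h_R on the log2 scale, and the median of all genes tested was 0.03 to 0.07. The 6 comparisons share the 3 Sham libraries. With library size alone the median member was -0.35, 0.31 and 0.24 in the F groups and 0.17, 0.040 and 0.43 without F, and on log2(TPM + 1) it was -0.057, 0.66 and 0.47 and 0.42, 0.11 and 0.76, so that it stayed negative in MI24h-F only. Without MI24h replicate 41 the count in MI24h was 3, and without Sham replicate 11 that in MI1h-23h-F was 5. These fits called 3198 genes up and 2936 down, of 11887, and 2942 up and 2857 down, of 11868.

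**Figure D2:**
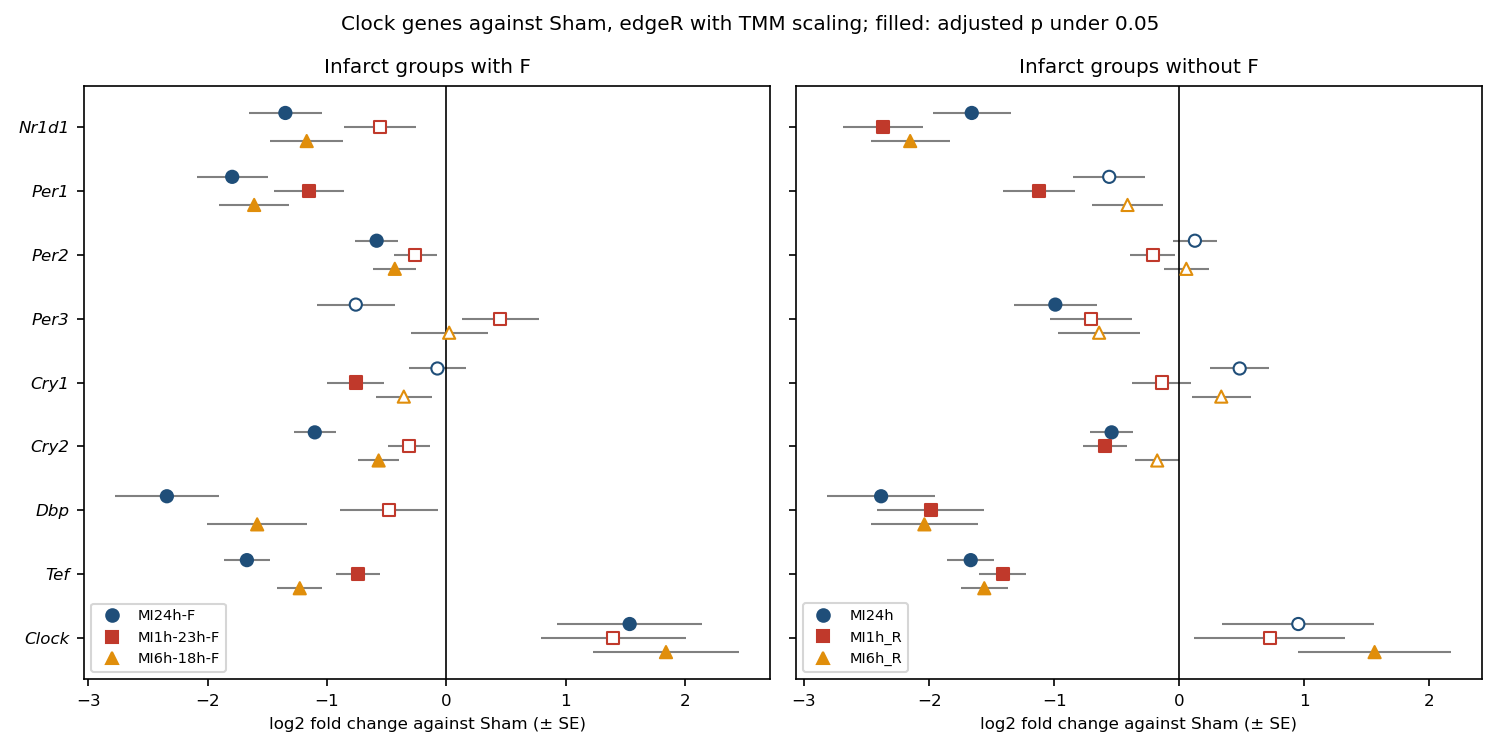
Log2 fold change (± SE) of each clock gene against Sham, from edgeR with TMM scaling, for the 3 infarct groups with F (left) and the 3 without F (right), with filled symbols at adjusted p under 0.05. Nr1d1, Dbp and Tef lie left of 0 in all 6 groups with this scaling, and Clock lies right of 0.

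Of 15 other clock genes tested, the transcripts of NPAS2 (the stand-in for CLOCK) and the deubiquitinase USP2 fell in all 6 infarct groups, and Timeless, known in mammals mainly for DNA replication, rose in all 6. Npas2 had 6.43, 9.09 and 9.25 CPM in MI24h-F and 10.3, 8.31 and 6.72 CPM in MI24h, against 25.4, 9.74 and 15.02 CPM in Sham. On log2(TPM + 1) its sign turned in MI24h-F (0.040) and MI24h (0.051). Usp2 was -3.33, -1.59 and -2.21 in MI24h-F, MI1h-23h-F and MI6h-18h-F and -2.44, -2.59 and -2.60 in MI24h, MI1h_R and MI6h_R. Over the same 18 infarct libraries and Sham, the summed cardiomyocyte markers had r = 0.89 with log2 Usp2 and 0.85 with log2 Tef. The part of the cardiomyocyte signal in these falls was not tested.

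Arntl, the gene of BMAL1, fell in the 3 F groups, at -0.72 ± 0.18 in MI24h-F, -0.76 ± 0.18 in MI1h-23h-F and -0.50 ± 0.18 in MI6h-18h-F (adjusted p = 0.00202, 0.00222 and 0.0230). Without F it was -0.19, -0.31 and -0.26 in MI24h, MI1h_R and MI6h_R, with no call. All 6 values of Arntl turned positive with library size alone (0.046, 0.063 and 0.32 with F and 0.56, 0.48 and 0.61 without it) and on log2(TPM + 1) (0.28, 0.32 and 0.53 with F and 0.75, 0.53 and 0.85 without it). Nfil3, the D-box repressor, rose in MI24h-F (1.06 ± 0.28), MI24h (1.72 ± 0.29) and MI6h_R (1.00 ± 0.28), with adjusted p = 0.00372, 7.48e-05 and 0.00596. Bhlhe40, which encodes the E-box repressor DEC1 and is also induced by hypoxia, rose in every infarct group but MI1h_R. It had 178, 245 and 234 CPM in MI24h-F and 248, 184 and 185 CPM in MI24h, against 81.4, 44.7 and 57.5 CPM in Sham, and 77.3 to 122 CPM in the 12 reperfused libraries. Counted over the 15, 6 rose and 5 fell in MI24h-F, 2 and 4 in MI1h-23h-F, and 3 and 4 in MI6h-18h-F. Without F, 7 rose and 3 fell in MI24h, 2 and 3 in MI1h_R, and 5 and 3 in MI6h_R. Of the falls, 2, 1 and 1 turned sign with library size alone in MI24h-F, MI1h-23h-F and MI6h-18h-F and none without F, and on log2(TPM + 1) 3, 1 and 1 with F and 1 without F, in MI24h.

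Between injuries without F, no member passed the test. For MI1h_R against MI24h, where 4.32% of all genes were called, 2 members had an unadjusted p under 0.05. For MI6h_R against MI24h, with 0.502% called, it was 1, and for MI6h_R against MI1h_R, with 2.41% called, it was 2. Among all 11742 genes tested, 2465, 996 and 2586 had an unadjusted p under 0.05 in these 3 comparisons. DESeq2 called none of the 9 in these 3 comparisons, and limma on log2(TPM + 1) called 1, in MI6h_R against MI1h_R. There limma called 876 genes up and 90 down, of 11742. Nr1d1 was -0.71 in MI1h_R against MI24h (95% interval -1.35 to -0.060), -0.49 in MI6h_R against MI24h (-1.13 to 0.15) and 0.22 in MI6h_R against MI1h_R (-0.43 to 0.86). Per1 was 0.71 in MI6h_R against MI1h_R (0.10 to 1.31). Among the other clock genes, Bhlhe40 fell in MI1h_R (-1.27, adjusted p = 0.00254) and in MI6h_R (-1.21, adjusted p = 0.00858) relative to MI24h. Nfil3 (-1.15, adjusted p = 0.0269) and Ciart, whose product represses CLOCK-BMAL1 (-2.17, adjusted p = 0.00755), fell in MI1h_R relative to MI24h. Without MI1h_R replicate 41, 1 member was called in MI6h_R against MI1h_R. That fit called 730 of all 11886 genes up and 551 down.

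Between injuries with F, 4 of the 9 members were higher in MI1h-23h-F than in MI24h-F and none lower, where 15.6% of all genes were called, 8.87% higher and 6.74% lower. Dbp rose by 1.86 ± 0.43 on the log2 scale (adjusted p = 0.00933), with all 3 MI1h-23h-F libraries above all 3 of MI24h-F. Per3 rose by 1.21 ± 0.33 (adjusted p = 0.0196), Tef by 0.93 ± 0.19 (adjusted p = 0.00527) and Cry2 by 0.79 ± 0.18 (adjusted p = 0.00825), again without overlap. Nr1d1 was 0.80 ± 0.30 (adjusted p = 0.0820) and Cry1 -0.69 ± 0.24 (adjusted p = 0.0561), with no call. Usp2 rose (1.74), and Nfil3 (-1.15), Bhlhe40 (-1.28) and Fbxw11, a ubiquitin ligase subunit (-0.44), fell. Without MI1h-23h-F replicate 4 the calls of Per3 (adjusted p = 0.118) and Cry2 (0.0531) were lost and 2 members remained called. That fit called 372 of all 11891 genes up and 272 down. Per3 also lost its call without MI24h-F replicate 2 (0.0790) or 4 (0.0625). Of 11 cardiomyocyte markers 10 rose in the same comparison, with sums of 9443 to 15505 CPM in MI1h-23h-F and 2068 to 4192 CPM in MI24h-F, and 5 of 8 fibroblast markers rose. Of 8 neutrophil markers 4 fell, with sums of 239 to 575 CPM in MI1h-23h-F and 1145 to 1299.6 CPM in MI24h-F. Their part in the clock genes' difference was not tested.

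For MI6h-18h-F against MI24h-F no member was called by edgeR, DESeq2 or limma on log2(TPM + 1), where 0.485% of all genes were called by edgeR. There 3 members and 1104 of the 11742 genes tested had an unadjusted p under 0.05. For MI6h-18h-F against MI1h-23h-F edgeR called 0% of the 11742 genes and no member, with 1597 genes and 2 members at an unadjusted p under 0.05, and DESeq2 and limma called no member. MI6h-18h-F was uneven. Its replicate 1 had more Nr1d1, Dbp, Tef and Per3 than its replicates 2 and 4, with 40.6 CPM of Dbp against 12.5 and 20.9 CPM. The summed cardiomyocyte markers were 8605 CPM in replicate 1, 3530 CPM in replicate 2 and 2934 CPM in replicate 4. Without replicate 1, 1 member was called in MI6h-18h-F against MI1h-23h-F. That fit called 66 of all 11894 genes up and 167 down.

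The design pairs each injury with and without F. Nr1d1 was higher with F after 1 h of ischemia, the only member called there. It had 60.9, 88.1 and 55.5 CPM in MI1h-23h-F, against 20.9, 23.4 and 14.0 CPM in MI1h_R. No F library overlapped one without F, and the log2 fold change was 1.81 ± 0.31 (adjusted p = 0.0297), in a comparison in which 9 genes, 0.0766% of all tested, were called, 0.0255% higher and 0.0511% lower. The call was lost in each of the 6 fits that left out 1 library (adjusted p = 0.0582 to 0.233) with fold changes of 1.59 to 1.97. Dbp (1.51 ± 0.42, adjusted p = 0.130), Per3 (1.16 ± 0.33, adjusted p = 0.130) and Tef (0.67 ± 0.19, adjusted p = 0.130) were higher in all 3 libraries of MI1h-23h-F than in any of MI1h_R. Cry1 was lower (-0.62 ± 0.24, adjusted p = 0.214), and none of these passed the test. The share of all genes without overlap between groups was not counted, so a lack of overlap, here or elsewhere, only describes these libraries. DESeq2 called Nr1d1, Per3, Dbp and Tef, and over all 11681 genes it tested 141 up and 173 down. Per1, lower with F under the other injuries below, was -0.028 here (95% interval -0.63 to 0.58). None of the 11 cardiomyocyte markers passed the test in this comparison, and their sums were 9443 to 15505 CPM in MI1h-23h-F and 8602 to 12414 CPM in MI1h_R. The 8 fibroblast markers summed to 7649.6 to 10352 CPM in MI1h-23h-F and 2948 to 4949 CPM in MI1h_R, and the 3 red cell markers to 2982 to 4194 CPM and 899 to 2382 CPM, neither with overlap. None of these markers passed the test. An unadjusted p under 0.05 was seen for 6 of 8 and 3 of 3, and for 1917 of all 11742 genes tested. Median log2 fold changes were 0.90 and 2.46 for the fibroblast and red cell markers. Their part was not tested.

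Under 24 h of ligation 3 repressor genes were lower with F and no member was higher, where 13% of all genes were called, 7.78% lower and 5.19% higher. Per1 had 20.7, 22.8 and 22.97 CPM in MI24h-F, against 58.5, 57.6 and 40.5 CPM in MI24h, so that the groups stood well apart (-1.23 ± 0.29, adjusted p = 0.0126). Per2 had 18.6, 23.1 and 18.1 CPM in MI24h-F, against 37.1, 28.7 and 31.9 CPM in MI24h (-0.71 ± 0.18, adjusted p = 0.0169). Cry2 was -0.56 ± 0.18 (adjusted p = 0.0421). Nr1d1 was 0.31 ± 0.31 (95% interval -0.33 to 0.95) and Dbp 0.041 ± 0.42 (-0.84 to 0.92), with no call. Without MI24h-F replicate 1 no member was called (adjusted p of Per1 = 0.0671, of Per2 = 0.0862, of Cry2 = 0.158). That fit called 132 of all 11898 genes up and 184 down. Per2 was lost too without MI24h-F replicate 4 (0.0623) or MI24h replicate 11 (0.0635), and Cry2 without any 1 library but MI24h-F replicate 2 (adjusted p up to 0.158). Of the 11 cardiomyocyte markers 5 fell in this comparison, with sums of 2068 to 4192 CPM in MI24h-F and 6916 to 10211 CPM in MI24h. Of the 3 red cell markers 1 rose, with sums of 4148 to 12969.6 CPM in MI24h-F and 1311 to 4158 CPM in MI24h. Their part was not tested.

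After 6 h of ischemia Per1 was again lower with F, the only member called there, where 9.62% of all genes were called, 5.71% lower and 3.92% higher. It had 30.3, 20.6 and 24.8 CPM in MI6h-18h-F, against 64.4, 49.5 and 59.4 CPM in MI6h_R (-1.197 ± 0.29, adjusted p = 0.0179). Nr1d1 had 68.8, 31.01 and 33.6 CPM in MI6h-18h-F, against 23.5, 24.7 and 19.3 CPM in MI6h_R (0.98 ± 0.31, adjusted p = 0.0510). Neither pair of groups overlapped. Cry1 was -0.69 ± 0.23 (adjusted p = 0.0682), and DESeq2 called Nr1d1, Per1 and Cry1. Over all 11400 genes it tested, DESeq2 called 785 up and 929 down. The Per1 call was lost without MI6h-18h-F replicate 2 (adjusted p = 0.0960) or MI6h_R replicate 11 (adjusted p = 0.0703), and without MI6h-18h-F replicate 4 the count of members called was 2. The last of these fits called 408 of all 11901 genes up and 487 down. Of 8 fibroblast markers 4 rose in this comparison, with sums of 3714 to 9209 CPM in MI6h-18h-F and 1859 to 2586 CPM in MI6h_R, and no cardiomyocyte marker passed the test.

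Averaged over the 3 injuries, 7 of the 9 members differed between F and no F, where 27.1% of all genes were called, 11.3% higher and 15.7% lower. Nr1d1 (1.03 ± 0.18, adjusted p = 0.000508), Per3 (0.68 ± 0.19, adjusted p = 0.0115), Dbp (0.67 ± 0.24, adjusted p = 0.0475) and Tef (0.33 ± 0.11, adjusted p = 0.0275) rose with F. Per1 (-0.82 ± 0.17, adjusted p = 0.00169), Per2 (-0.41 ± 0.10, adjusted p = 0.00648) and Cry1 (-0.62 ± 0.14, adjusted p = 0.00267) fell. Cry2 was -0.22 ± 0.10 (adjusted p = 0.107) and Clock 0.52 ± 0.34 (adjusted p = 0.279). Nr1d1, Per3, Dbp and Tef thus moved one way and the repressor genes Per1, Per2 and Cry1 the other. Of the 15 other clock genes, Arntl (-0.41 ± 0.10, adjusted p = 0.00716), Nfil3 (-0.59 ± 0.16, adjusted p = 0.0114) and the kinase gene Csnk1d (-0.26 ± 0.061, adjusted p = 0.00495) fell and none rose. Arntl, Nfil3 and Cry1 are known targets of repression by NR1D1. The part of NR1D1 in their falls was not tested.

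The Dbp call in this average was lost in 14 of the 18 fits that left out 1 library (adjusted p = 0.0505 to 0.124), all but those without MI1h-23h-F replicate 1, MI6h-18h-F replicate 2, MI1h_R replicate 11 or MI6h_R replicate 11, and that of Tef in 6 (adjusted p = 0.0504 to 0.0624). For Tef these were the fits without MI24h-F replicate 1, MI1h-23h-F replicate 4, MI6h-18h-F replicate 1, MI24h replicate 21, MI1h_R replicate 41 or MI6h_R replicate 31. The other 5 calls of members held in all 18. Of 8 fibroblast markers 5 and of 3 red cell markers 3 rose with F on average, and none of 11 cardiomyocyte markers passed the test. Fibroblast sums were 3690.2 to 4429.5, 7649.6 to 10352 and 3714 to 9209 CPM in MI24h-F, MI1h-23h-F and MI6h-18h-F and 2047 to 3437, 2948 to 4949 and 1859 to 2586 CPM in MI24h, MI1h_R and MI6h_R. Their part in these differences was not tested.

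Whether the F difference itself changed with the injury was tested directly. The tests compared 1 h of ischemia with 24 h of ligation, 6 h with 24 h, and 6 h with 1 h, in this order. No member was called by edgeR in the 3 tests, where 0%, 0% and 0.00852% of all genes were called. An unadjusted p under 0.05 was seen for 6, 0 and 2 members, and for 1990, 425 and 1551 of the 11742 genes tested. Nr1d1 gained 1.503 ± 0.43 more with F after 1 h of ischemia than under 24 h of ligation (95% interval 0.59 to 2.41, adjusted p = 0.169), and this was the 1 member that DESeq2 called (adjusted p = 0.0470). The like difference was 1.47 ± 0.59 for Dbp and 1.21 ± 0.41 for Per1 (adjusted p = 0.239 and 0.196). Limma on log2(TPM + 1) called no member in the 3 tests. In the test in which DESeq2 called Nr1d1, it called 150 of 9997 genes up and 74 down. A call under one injury and not under another, as for Per1 or Nr1d1, is thus not shown to be a difference between injuries by edgeR.

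**Figure D3:**
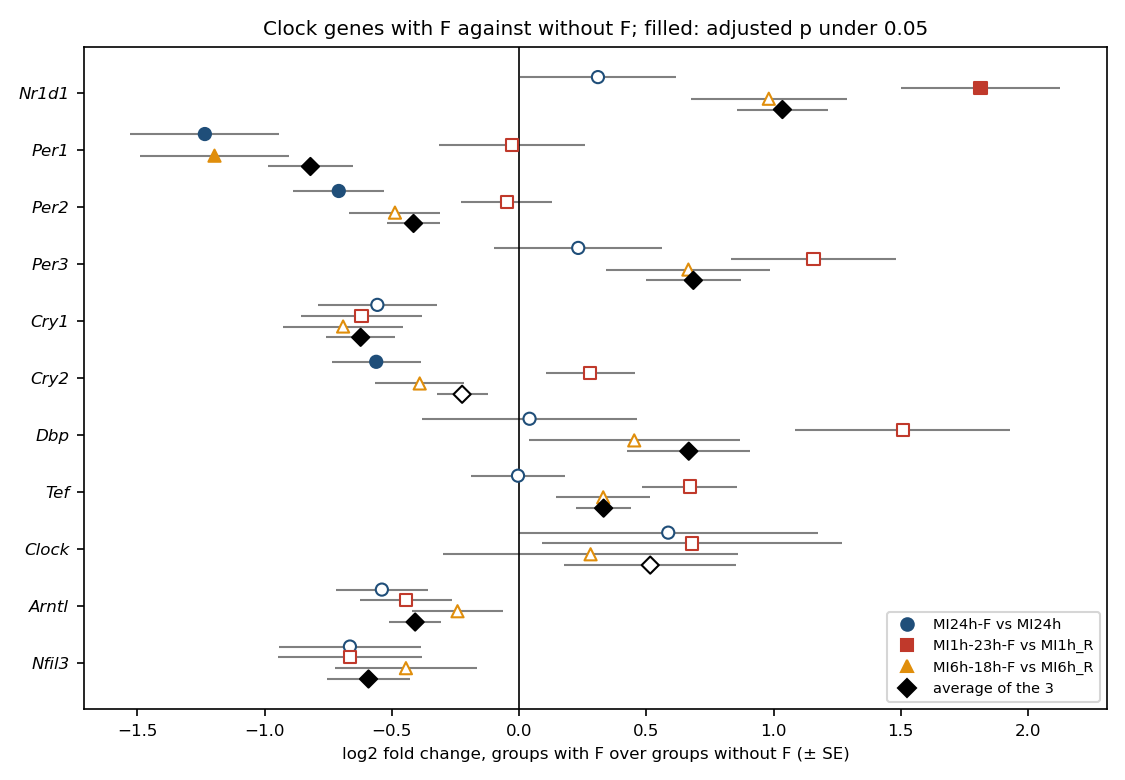
Log2 fold change (± SE) with F against without F for the 9 clock genes, Arntl and Nfil3 under each injury and averaged over the 3, with filled symbols at adjusted p under 0.05. In the average Nr1d1, Per3, Dbp and Tef lie right of 0 and Per1, Per2, Cry1, Arntl and Nfil3 left of it.

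Ratios of the counts of 2 genes in the same library do not depend on how libraries are scaled. The 4 ratios here were chosen after the values above were seen and are given as a description. Nr1d1 over Cry1, a repressor over its target, was 1.28, 1.76 and 1.51 in MI24h-F, 4.14, 6.08 and 2.85 in MI1h-23h-F and 4.06, 1.16 and 1.62 in MI6h-18h-F. It was 0.760, 0.868 and 0.869 in MI24h, 0.688, 0.942 and 0.712 in MI1h_R and 0.623, 0.820 and 0.535 in MI6h_R, against 6.62, 2.37 and 2.86 in Sham. Every F library and every Sham library was above 1 and every infarct library without F below 1. Nr1d1 over Arntl was 1.65 to 1.82 in MI24h-F, 2.24 to 4.19 in MI1h-23h-F and 0.947 to 2.93 in MI6h-18h-F. It was 0.792 to 1.11 in MI24h, 0.423 to 0.854 in MI1h_R and 0.555 to 0.913 in MI6h_R, against 1.99 to 3.86 in Sham. Here 1 F library fell under 1 and 1 library of MI24h exceeded it.

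Dbp over Nfil3, the activator over the repressor of the D-box, was 0.243 to 0.382 in MI24h-F, 1.95 to 3.45 in MI1h-23h-F and 0.302 to 1.46 in MI6h-18h-F. It was 0.136 to 0.339 in MI24h, 0.502 to 0.576 in MI1h_R and 0.299 to 0.470 in MI6h_R, against 1.19 to 8.90 in Sham. MI1h-23h-F was the only infarct group with every library above 1. Per3 over Per1 was 0.187 to 0.314 in MI24h-F, 0.211 to 0.442 in MI1h-23h-F and 0.276 to 0.419 in MI6h-18h-F. It was 0.0735 to 0.0912 in MI24h, 0.0870 to 0.310 in MI1h_R and 0.0767 to 0.117 in MI6h_R, against 0.102 to 0.122 in Sham. For this pair all 9 F libraries lay above Sham, and of the 9 infarct libraries without F 7 lay within or below the Sham range.

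**Figure D4:**
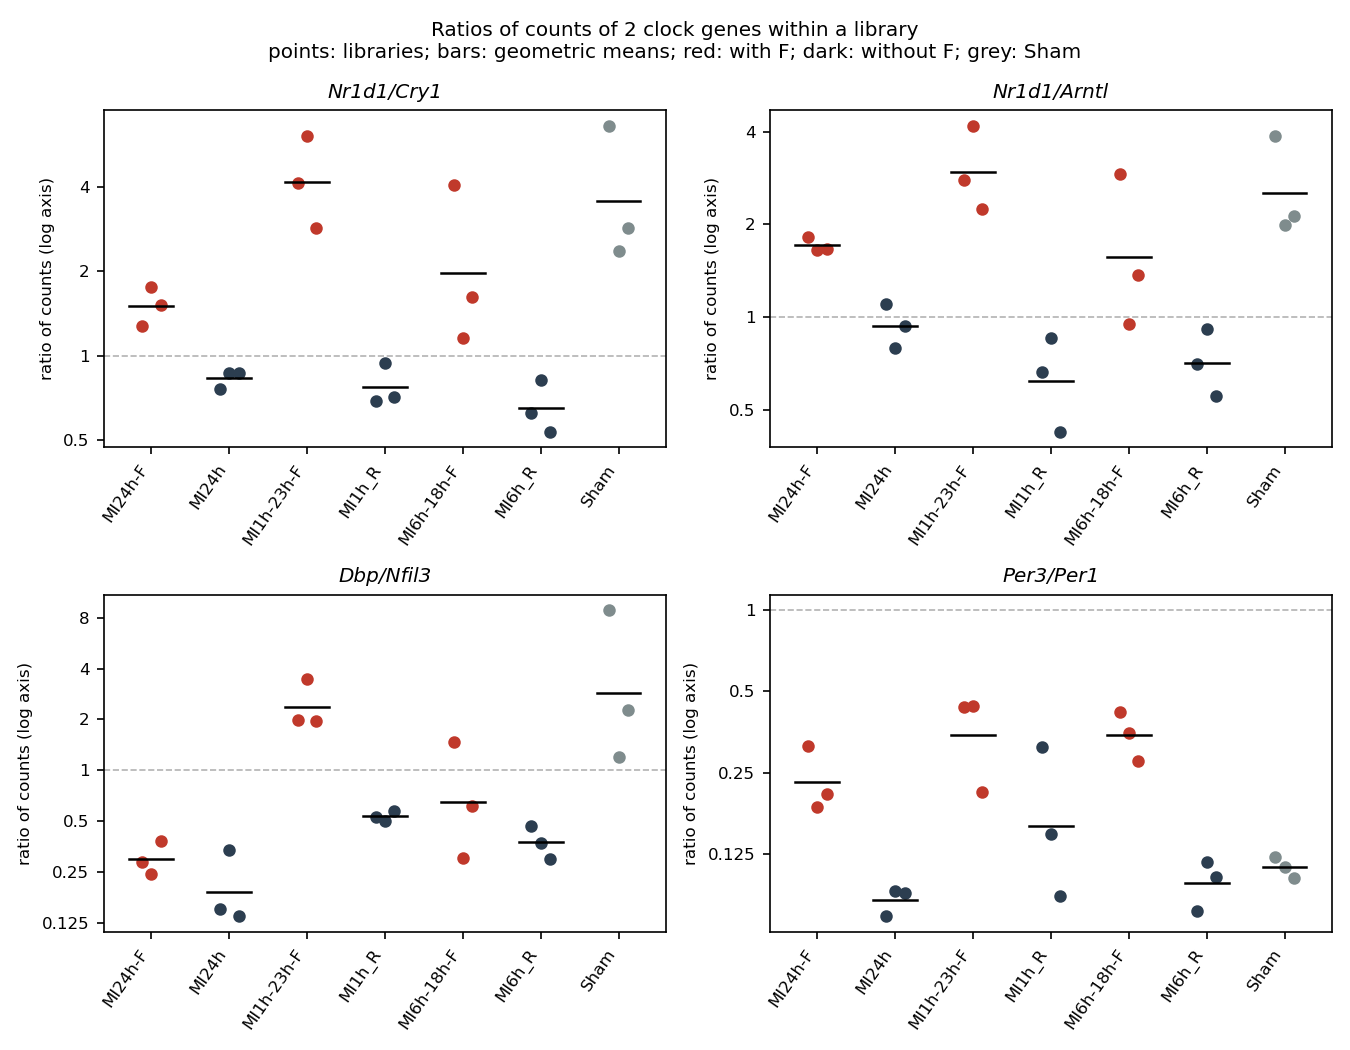
Ratio of the counts of 2 clock genes within each library (points, log axis) with geometric means (bars) by group, for Nr1d1/Cry1, Nr1d1/Arntl, Dbp/Nfil3 and Per3/Per1. Nr1d1/Cry1 is above 1 (dashed line) in all 9 F libraries and all 3 Sham libraries and below 1 in all 9 infarct libraries without F.

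Several members varied together over the 18 infarct libraries, whose values share the scaling and hold the group differences above. Pearson's r of log2 CPM was 0.88 for Dbp with Tef, 0.86 for Per3 with Tef, 0.84 for Dbp with Per3 and 0.70 for Nr1d1 with Tef. The promoter windows of Nr1d1 and Tef above hold CACGTG, while those of Dbp and Per3 held none of the letters searched. A link between these letters and r was not tested. Per1 and Per2 had r = 0.79, and Cry1 with Nfil3 had r = 0.91. The r was negative, at -0.72 for Dbp with Cry1, -0.73 for Per3 with Cry1 and -0.66 for Nr1d1 with Arntl. Nr1d1 had r = -0.54 with Cry1 and -0.36 with Nfil3. With the group means removed r was 0.86 for Nr1d1 with Tef, 0.59 for Dbp with Tef, 0.62 for Per3 with Tef, 0.58 for Dbp with Per3 and 0.84 for Cry1 with Nfil3. It was 0.24 for Per1 with Per2, -0.35 for Dbp with Cry1, -0.26 for Per3 with Cry1 and -0.33 for Nr1d1 with Arntl. For Nr1d1 it was -0.056 with Cry1 and 0.083 with Nfil3. With the summed cardiomyocyte markers r over the same 18 libraries was 0.53 for Tef, 0.50 for Per2, 0.48 for Dbp and 0.13 for Nr1d1. No p is given, since libraries of a group share their treatment.

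**Figure D5:**
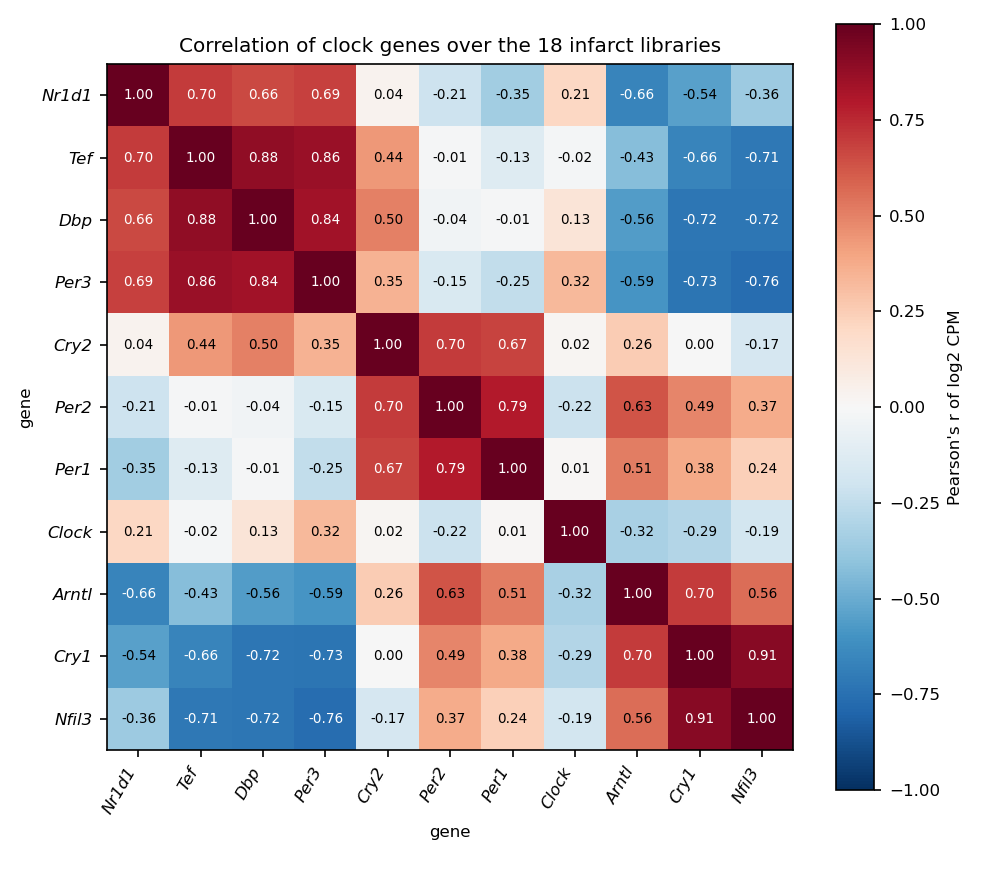
Pearson's r of log2 CPM between pairs of 11 clock genes over the 18 infarct libraries (colour and printed value). Nr1d1, Tef, Dbp and Per3 form one block of positive values, with negative values against Arntl, Cry1 and Nfil3.

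The tested genes most like each member, by Pearson's r of log2 CPM over all 21 libraries, were Bmp6 (0.92), Wwp1 (0.89) and Klhl24 (0.86) for Nr1d1. For Tef they were Rims1 (0.96), Sod3 (0.95) and Gas6 (0.95), and for Dbp Rims1 (0.92), Gask1a (0.91) and Papln (0.90). Tef and Dbp thus shared their nearest gene. Per3 was nearest to Cadps2 (0.88), Per1 to Kansl3 (0.93), Per2 to Map7d1 (0.88), Cry1 to Tmem222 (0.88) and Cry2 to Dctn1 (0.90). Clock was nearest to Eif4ebp3 and Ankhd1, which had the same r (0.978524), and whether these symbols share counts was not checked. Clock also followed the length slope given above, at r = 0.95 over these libraries. Over the 18 infarct libraries alone the nearest gene stayed Bmp6 for Nr1d1, Rims1 for Tef and Dctn1 for Cry2 and was Sod3 (0.89) for Dbp, Ffar2 (0.94) for Cry1 and Klhl11 (0.98) for Clock.

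Of 12 genes known as clock outputs in heart or liver, 10 were tested. Against Sham, 1 rose and 6 fell in MI24h-F, 1 and 6 in MI1h-23h-F, and 2 and 7 in MI6h-18h-F, while 2 rose and 6 fell in MI24h, 2 and 7 in MI1h_R, and 2 and 7 in MI6h_R. Of these falls, 1 in MI24h turned sign with library size alone, and on log2(TPM + 1) 1 turned in each of MI24h-F, MI6h-18h-F and MI24h and 2 in MI6h_R. Slc2a4, the insulin-responsive glucose transporter GLUT4, was -7.50 in MI24h-F and -5.81 in MI24h (adjusted p = 8.59e-07 and 7.67e-06). Klf15, a regulator of rhythmic cardiac metabolism and repolarisation, was -6.19 in MI24h-F and -4.77 in MI24h (adjusted p = 7.30e-06 and 6.25e-05). The triglyceride lipase gene Pnpla2 was -2.96 and -1.72 in these groups. In MI1h-23h-F against MI24h-F, Slc2a4 (3.57), Klf15 (3.03) and Pnpla2 (1.196) rose and Nampt, of NAD synthesis, fell (-1.33), with 4 up and 1 down of the 10. With F averaged over the 3 injuries, 2 fell, Pnpla2 (-0.48, adjusted p = 0.0324) and Por, the cytochrome P450 reductase (-0.30, adjusted p = 0.0365), and none rose. Heart muscle cells express several of these genes strongly, and the cardiomyocyte sums given above were also lower than in Sham. The part of the cardiomyocyte signal in the falls of these output genes was not tested.

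Glucocorticoids reset peripheral clocks and induce Per1, and 7 of 10 genes of a glucocorticoid list were tested. Fkbp5, a standard glucocorticoid target, was 0.65 in MI6h-18h-F and 0.52 in MI1h-23h-F relative to Sham (adjusted p = 0.0208 and 0.0685), and it rose in MI24h (0.97), MI1h_R (0.89) and MI6h_R (1.54), with adjusted p = 0.00163, 0.00349 and 2.37e-05. Klf9 fell in MI24h-F (-2.06), MI6h-18h-F (-1.48), MI24h (-1.40), MI1h_R (-2.10) and MI6h_R (-1.03), the last of which turned positive on log2(TPM + 1) (0.27). With F averaged over the 3 injuries Fkbp5 fell (-0.57, adjusted p = 0.00396), as Per1 did, and Nr3c1, the glucocorticoid receptor gene, rose (0.39, adjusted p = 0.00347), so that 1 of the 7 rose and 1 fell. Fkbp5 passed the test with F in MI6h-18h-F against MI6h_R (-0.88, adjusted p = 0.0233), and in MI24h-F against MI24h it was -0.45 (adjusted p = 0.201). In MI1h-23h-F against MI24h-F Zbtb16 (2.07) and Klf9 (1.26) rose and the metallothionein gene Mt2A (-2.46) fell.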

How the data were processed

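RNA was taken from the infarct zone of Sprague Dawley rat hearts with the RNeasy kit and DNase digestion, and mRNA libraries were made with the NEBNext Ultra kit and sequenced on an Illumina HiSeq, per the labels' protocols. STAR 2.7.3a, RSEM 1.3.1 and the rn7 build are named in the submitters' processing notes, which do not state strandedness or annotation. The authors deposited whole-number estimated counts per gene symbol and TPM values, for 21 libraries in 7 groups. Library columns were matched to samples by title, and groups follow the titles. The group labels leave out the F.

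The deposited counts were tested with edgeR 4.0.16 (R 4.3.3) by the quasi-likelihood F test, with TMM scaling, the filterByExpr filter on low counts, 1 term per group and all 21 libraries in 1 fit, in 19 contrasts. Benjamini-Hochberg adjustment ran over the 11742 genes kept, and a gene was called at adjusted p under 0.05. The F average is the mean of the 3 log2 fold changes with F against without F. Alternatives were library size alone or median-of-ratios factors in place of TMM, all genes kept, mitochondrial genes left out, a fit of the compared groups only, DESeq2 1.42.0, limma 3.58.1 (with trend) on log2(TPM + 1), a replicate block, each library left out and, added after the data were seen, removal of the trend on gene length. The scripts were tested on simulated data. The depth of 12208041 to 18393795 counts and 3 libraries per group limit what can be detected.

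Members, gene lists and tests were chosen with earlier results of these data known. In every comparison the members were named, with other clock genes by call, up to 4 genes of the output and glucocorticoid lists by smallest p, and the 3 genes most like each member by Pearson's r. Per-library CPM values are counts over TMM-scaled library size, log2 values used a prior count of 2, and figures were drawn with matplotlib 3.10.9. Promoters are from RefSeq GRCr8.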

Additional observations from a re-analysis of the deposited data

How the results depend on the processing

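Counts of members called moved by more than 1.5 times under these settings. Scaling to library size alone gave 7 of 9 in MI6h_R against Sham, 4 in MI6h-18h-F against Sham and 2 in MI6h-18h-F against MI6h_R. All genes called up and down were then 6878 and 1510, 6490 and 1560, and 327 and 670, of 11742 tested. On log2(TPM + 1) there were 3 in MI24h-F and 3 in MI1h_R against Sham, 1 in MI24h-F against MI24h, 2 in MI6h-18h-F against MI6h_R and 1 in MI6h_R against MI1h_R. In the same order, all genes up and down were 7140 and 1546, 6741 and 1148, 537 and 795, 266 and 979, and 876 and 90, of 11742. A fit of only the groups compared gave 3 in MI6h-18h-F and 3 in MI24h against Sham, 7 in MI1h-23h-F against MI24h-F and 0 in MI1h-23h-F against MI1h_R. Up and down over all genes were 2260 and 2812 of 11169, 2145 and 2470 of 11219, 1789 and 1669 of 11190, and 7 and 2 of 11217. DESeq2 gave 4 in MI1h-23h-F against MI1h_R, 3 in MI6h-18h-F against MI6h_R and 1 for the F difference after 1 h of ischemia against that under 24 h of ligation. Its calls up and down over all genes were 141 and 173 of 11681, 785 and 929 of 11400, and 150 and 74 of 9997. With the trend on gene length removed there were 5 in MI1h-23h-F against Sham, 7 in MI6h_R against Sham and 2 in MI6h-18h-F against MI6h_R. This setting called 2583 and 3097, 3242 and 3515, and 576 and 760 of all 11742 genes up and down. The cause of these moves was not tested.

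Of the 47 fold changes of members called in the fit described, 0 lost their call with DESeq2 or without mitochondrial genes, 1 with median-of-ratios factors, 2 with no filter, 1 with the length trend removed and 11 with only the groups compared. With library size alone 9 lost it and 7 turned sign, and on log2(TPM + 1) 19 lost it and 8 turned sign. Those that turned, with library size alone and on log2(TPM + 1), were Per2 in MI24h-F (0.18 and 0.36), Cry1 (0.060 and 0.30) and Tef (0.058 and 0.35) in MI1h-23h-F, Cry2 (0.24 and 0.47) and Per2 (0.38 and 0.52) in MI6h-18h-F, Cry2 in MI24h (0.20 and 0.42), Cry2 in MI1h_R (0.18 and 0.28) and, on log2(TPM + 1) alone, Per3 in MI24h (0.017), all against Sham. The median gene moves by 0.80 to 0.91 against Sham with library size alone.

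With 1 library left out, the members called ran from 5 to 7 in MI24h-F, 2 to 5 in MI1h-23h-F, 5 to 7 in MI6h-18h-F, 3 to 6 in MI24h, 5 to 6 in MI1h_R and 3 to 4 in MI6h_R against Sham. They ran from 2 to 4 in MI1h-23h-F against MI24h-F, 0 to 1 in MI6h-18h-F against MI1h-23h-F and in MI6h_R against MI1h_R, 0 to 3 in MI24h-F against MI24h, 0 to 0 in MI1h-23h-F against MI1h_R, 0 to 2 in MI6h-18h-F against MI6h_R and 5 to 7 for F averaged, and stayed at 0 in the other 6 comparisons. Calls over all genes moved in these fits too. In MI6h-18h-F against MI1h-23h-F they went from 0 to 66 up and 167 down without MI6h-18h-F replicate 1. Of the single members' values so refitted, 63 lost their call, 303 kept it and 0 turned sign. Nr1d1, Dbp and Tef against Sham lost none.

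The labels do not say that replicate numbers pair libraries. Deviations of same-numbered libraries correlated above 0.1 in 4 of 13 pairs without F and 1 of 7 with F, and 1 of 12 and 0 of 9 libraries correlated best with their own number. With the replicate block 0 members were called in MI1h-23h-F against MI24h-F, where Dbp was 1.62, Per3 1.26, Tef 0.91 and Cry2 0.74, and 3 in MI6h_R against Sham, where Clock was 1.93. Over all genes 56 were up and 180 down of 11364 in the former, and 2084 up and 2208 down of 11572 in the latter. The block could not be fitted between F groups and groups without F, which share no numbers. The count of members called changed in no other comparison under the block.

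With 3 libraries per group, a p that missed the threshold does not show that levels were equal. Per3 had 53 to 259 counts and Clock as few as 28.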
